A study of Saccharomyces cerevisiae with 13 samples.

Results

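The AAD genes of Saccharomyces cerevisiae, AAD3, AAD4, AAD6, AAD10 and AAD14, were read on 13 one-colour Affymetrix arrays of cells treated for 30 min with a compound or with solvent. These 5 genes were among 5449 named genes measured. They were chosen by name, as members of the aryl-alcohol dehydrogenase family. Where a gene had several probe sets, the one with the highest mean log2 signal over all 13 arrays was used. The choice took 1779803_x_at for AAD3 (mean 9.95, next probe set 9.71) and 1771716_s_at for AAD4 (mean 11.79, next probe set 9.47), while AAD6, AAD10 and AAD14 had 1 probe set each. The strain was BY4741 in every group, a haploid laboratory strain whose HIS3, LEU2, MET17 and URA3 genes are altered, grown to mid-log phase in rich YPD medium. SMERs are small molecule enhancers of rapamycin, known here by code names, and rapamycin inhibits TOR complex 1, a kinase complex that ties growth to nutrients. The groups were SMER3 at 20 µM (1 array), SMER1 at 20 µM with rapamycin at 100 nM (SMER1+Rapa, 2 arrays), SMER1 at 20 µM (2 arrays), SMER2, SMER4 and SMER5 at 20 µM (1 array each), rapamycin at 100 nM (2 arrays), and DMSO, the solvent (3 arrays). SMER-treated cells were to be set against both DMSO and rapamycin, to find expression changes particular to SMERs. The labels number the replicates without saying whether they were separate cultures, so p-values measure the spread between these arrays, which may be technical.

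Aryl-alcohol dehydrogenases belong to the aldo-keto reductases, enzymes that reduce aldehydes and ketones to alcohols with NADPH. The yeast AAD proteins were named for their similarity to an enzyme of the lignin-degrading fungus Phanerochaete chrysosporium, and their substrates in yeast are poorly known. The genes are similar in sequence and lie near chromosome ends. Expression of AAD4 and AAD6 is known to rise under oxidative stress through Yap1, a transcription factor that activates thioredoxin, glutathione and oxidoreductase genes. In the R64 gene table AAD6 is annotated as a pseudogene with YFL057C as a synonym, and the other 4 genes as protein-coding.

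The median log2 signal lay between 10.99 and 11.07 on the 13 arrays, and the correlation across genes of arrays from 1 group was 0.984 to 0.992. Of the genes altered in this strain, URA3 had a log2 signal between 1.97 and 4.55, MET17 between 4.05 and 5.78, LEU2 between 6.29 and 8.61, and HIS3, only partly deleted in this strain, between 12.14 and 13.18. LEU2 was lower on the SMER3 array than with DMSO (-1.67 ± 0.26, adjusted p = 0.00223 by limma). This is a call on a gene altered in the strain, and its cause was not tested. Of the 4 altered genes, 1 was called lower with SMER1, 2 lower with SMER1+Rapa and 1 higher with rapamycin. The AAD6 values with DMSO, rapamycin, SMER2, SMER4 and SMER5, from 7.33 to 8.28, lay within the LEU2 range. Differences of AAD6 that involve these groups thus rest on a low signal, and how much of it is background was not tested. The mean of AAD4 lay above 71.8% of all probe sets, that of AAD10 above 23.6%, of AAD3 above 22.3%, of AAD14 above 11.4% and of AAD6 above 9.31%. Differences below are log2 fold changes from a linear model of all 13 arrays (limma), ± gives their standard error, and a gene was called at a Benjamini-Hochberg adjusted p under 0.05 over all 5449 genes. The 4 lone arrays were assumed to vary like the replicated ones, and differences that involve them had no replicate check. All comparisons with the solvent share the same 3 DMSO arrays. Statements that arrays overlapped or lay above others describe the values printed, and the share of all genes that did so is not given.

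Against DMSO, all 5 AAD genes were higher on the SMER3 array, with SMER1 and with SMER1+Rapa, and 3 of the 5 were higher with rapamycin (n = 1, 2, 2 and 2 treated arrays against 3). AAD6 had the largest difference with SMER3 (2.83 ± 0.21, 7.12-fold, n = 1), AAD4 with SMER1 (1.69 ± 0.12, 3.23-fold) and with SMER1+Rapa (1.82 ± 0.12, 3.52-fold), and AAD10 with rapamycin (1.65 ± 0.09, 3.15-fold). This ranking covers the probe set used for each gene, and the other AAD4 probe set was higher still with SMER3, at 3.54 ± 0.17. Some of these calls were less firm. The AAD3 probe set 1779484_at was not called with SMER3, SMER1+Rapa or SMER1, and neither other AAD3 probe set was called with rapamycin. The AAD10 call with SMER3 was lost after quantile normalisation. In the fit without a replicate block, none of the 5 AAD genes was called with SMER2, SMER4 or SMER5. For comparison, 21.6% of all genes were called higher with SMER3, 39.6% with SMER1+Rapa, 36.5% with SMER1 and 39.7% with rapamycin, so that a count of 3 of 5 with rapamycin is not far from the background of that comparison. The family's median difference was 1.57 with SMER3, 1.11 with SMER1+Rapa, 0.89 with SMER1 and 0.27 with rapamycin. The same median over all genes was 0.02, 0.09, 0.09 and 0.16. A larger share of cells with the transcript and more transcript per cell cannot be told apart in such bulk RNA.

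**Figure D1:**
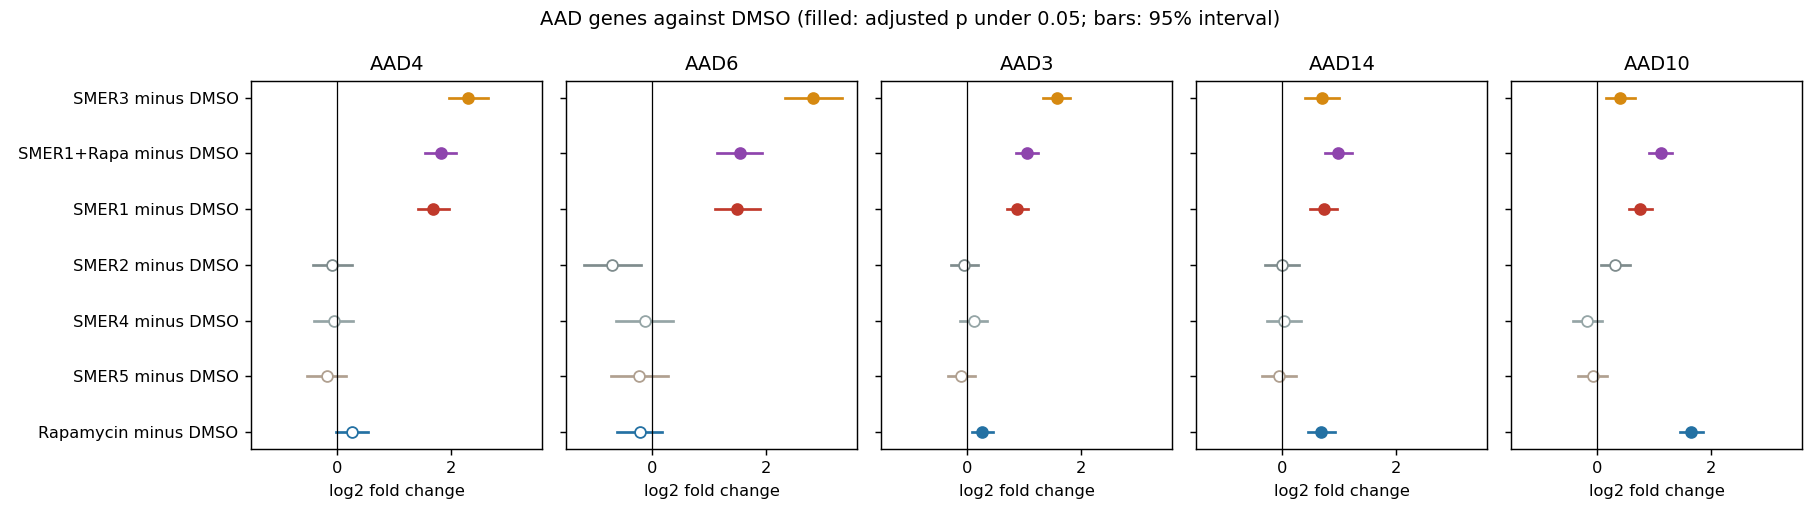
Log2 fold change against DMSO (x axis) of each AAD gene for each treatment (rows), with bars for the 95% interval of the limma fit and filled points for genes called at an adjusted p under 0.05. Within each panel, the AAD4, AAD6 and AAD3 points lie farthest right with SMER3, the AAD14 point with SMER1+Rapa and the AAD10 point with rapamycin, while every SMER2, SMER4 and SMER5 point is open.

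AAD4, a putative aryl-alcohol dehydrogenase, had a log2 signal of 13.36 on the SMER3 array, 12.93 and 12.82 with SMER1+Rapa, 12.79 and 12.71 with SMER1, 10.98 with SMER2, 11.002 with SMER4, 10.88 with SMER5, 11.44 and 11.20 with rapamycin, and 11.26, 10.98 and 10.94 with DMSO. The SMER3, SMER1+Rapa and SMER1 arrays all lay above every other array, and the rapamycin and DMSO arrays overlapped. AAD4 was higher with SMER3 by 2.30 ± 0.15 (adjusted p = 3.54e-05), with SMER1+Rapa by 1.82 ± 0.12 (adjusted p = 5.85e-06) and with SMER1 by 1.69 ± 0.12 (adjusted p = 1.75e-05). Its difference with rapamycin was 0.27 ± 0.12 and was not called (adjusted p = 0.0847). The other probe set of AAD4, the mean of both, and the fit without DMSO replicate 1 did call it (adjusted p = 0.00779, 0.0134 and 0.0172). With the replicate number as a block in the fit, that difference was 0.21 and called as well (adjusted p = 0.0377). Its groups ordered from SMER3 through SMER1+Rapa, SMER1, rapamycin, DMSO, SMER4 and SMER2 to SMER5. Along this order, SMER3 and SMER1+Rapa differed by more than the 95% interval of their difference, as did SMER1 and rapamycin, and no other neighbours did.

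Among the probe sets used, AAD6 had the widest range over groups, 3.53 log2 units between the highest and the lowest group mean. The other AAD4 probe set, 1774511_at, had a wider one, from 11.85 with SMER3 to 8.18 with SMER2. The log2 signal of AAD6 was 10.86 on the SMER3 array, 9.44 and 9.69 with SMER1+Rapa, and 9.34 and 9.70 with SMER1. AAD6 was at 7.33 with SMER2, 7.90 with SMER4, 7.80 with SMER5, 7.70 and 7.94 with rapamycin, and 7.86, 8.28 and 7.94 with DMSO. The SMER3, SMER1+Rapa and SMER1 arrays again lay above all others, the rapamycin arrays overlapped those of DMSO, and the lone SMER2 array was the lowest of all 13. AAD6 was higher with SMER3 by 2.83 ± 0.21 (adjusted p = 6.81e-05), with SMER1+Rapa by 1.54 ± 0.17 (adjusted p = 9.88e-05) and with SMER1 by 1.49 ± 0.17 (adjusted p = 0.000178). Among all genes its difference with SMER3 ranked 83rd from the top. The SMER2 array was at -0.70 ± 0.21 (95% interval -1.20 to -0.20), not called over all genes (adjusted p = 0.393). With the replicate number as a block in the fit it was -0.58 and called (adjusted p = 0.0258). With rapamycin the difference was -0.21 ± 0.17 (adjusted p = 0.322), and after quantile normalisation of the arrays it was -0.73 and called (adjusted p = 0.00618). The block fit called the rapamycin difference too, at -0.25 (adjusted p = 0.0144). In the order of its groups, SMER3 stood apart from SMER1+Rapa and SMER1 from DMSO by more than the 95% interval, and the 5 groups from DMSO downward did not differ from their neighbours by that measure.

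AAD3 had the same 3 highest groups as AAD4 and AAD6, in the same order, at smaller differences. Its log2 signal was 11.07 on the SMER3 array, 10.55 and 10.54 with SMER1+Rapa, 10.41 and 10.35 with SMER1, 9.45 with SMER2, 9.62 with SMER4, 9.40 with SMER5, 9.83 and 9.70 with rapamycin, and 9.50, 9.59 and 9.39 with DMSO. The SMER3, SMER1+Rapa and SMER1 arrays lay above the rest, and both rapamycin arrays lay above the 3 DMSO arrays. AAD3 was higher with SMER3 by 1.57 ± 0.10 (adjusted p = 3.54e-05), with SMER1+Rapa by 1.05 ± 0.08 (adjusted p = 1.32e-05) and with SMER1 by 0.89 ± 0.08 (adjusted p = 5.91e-05). The smaller difference with rapamycin (0.27 ± 0.08, adjusted p = 0.0211) was lost after quantile normalisation (adjusted p = 0.195), without rapamycin replicate 1 (adjusted p = 0.141) and in both other AAD3 probe sets. SMER3 exceeded SMER1+Rapa, and SMER1 exceeded rapamycin, by more than the 95% interval of the difference, and no other neighbours in the order did.

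AAD14 was higher with SMER3, SMER1 and rapamycin by 0.69 to 0.73 log2 units. Its log2 signal was 9.30 on the SMER3 array, 9.59 and 9.60 with SMER1+Rapa, 9.21 and 9.46 with SMER1, 8.61 with SMER2, 8.64 with SMER4, 8.56 with SMER5, 9.29 and 9.29 with rapamycin, and 8.75, 8.52 and 8.54 with DMSO. These 4 treatments, SMER1+Rapa among them, lay above all DMSO, SMER2, SMER4 and SMER5 arrays. The differences from DMSO were 0.70 ± 0.13 with SMER3 (adjusted p = 0.00448), 0.99 ± 0.10 with SMER1+Rapa (adjusted p = 6.33e-05), 0.73 ± 0.10 with SMER1 (adjusted p = 0.000488) and 0.69 ± 0.10 with rapamycin (adjusted p = 0.000737). SMER1 minus rapamycin was 0.04 (95% interval -0.22 to 0.30) and SMER3 minus rapamycin 0.01 (95% interval -0.31 to 0.32), neither called (adjusted p = 0.809 and 0.965).

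AAD10 had its highest level with rapamycin, not with a SMER. Its log2 signal was 9.85 on the SMER3 array, 10.45 and 10.67 with SMER1+Rapa, 10.17 and 10.25 with SMER1, 9.77 with SMER2, 9.28 with SMER4, 9.37 with SMER5, 11.15 and 11.06 with rapamycin, and 9.42, 9.41 and 9.52 with DMSO. The rapamycin arrays lay above all others, the SMER1+Rapa arrays came next, and the SMER1 arrays lay above the SMER3, SMER2 and DMSO arrays. Against DMSO, AAD10 was higher with SMER1+Rapa by 1.11 ± 0.09 (adjusted p = 1.42e-05), with SMER1 by 0.76 ± 0.09 (adjusted p = 0.000173) and with rapamycin by 1.65 ± 0.09 (adjusted p = 6.07e-06). The difference with SMER3 was 0.40 ± 0.11 (adjusted p = 0.0231), and this call was lost after quantile normalisation (adjusted p = 0.063) and without DMSO replicate 2 (adjusted p = 0.0589). From rapamycin down to SMER3, each group exceeded the next by more than the 95% interval of their difference. SMER2 exceeded DMSO by that measure too, at 0.32 (95% interval 0.07 to 0.58), but was not called over all genes (adjusted p = 0.445).

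**Figure D2:**
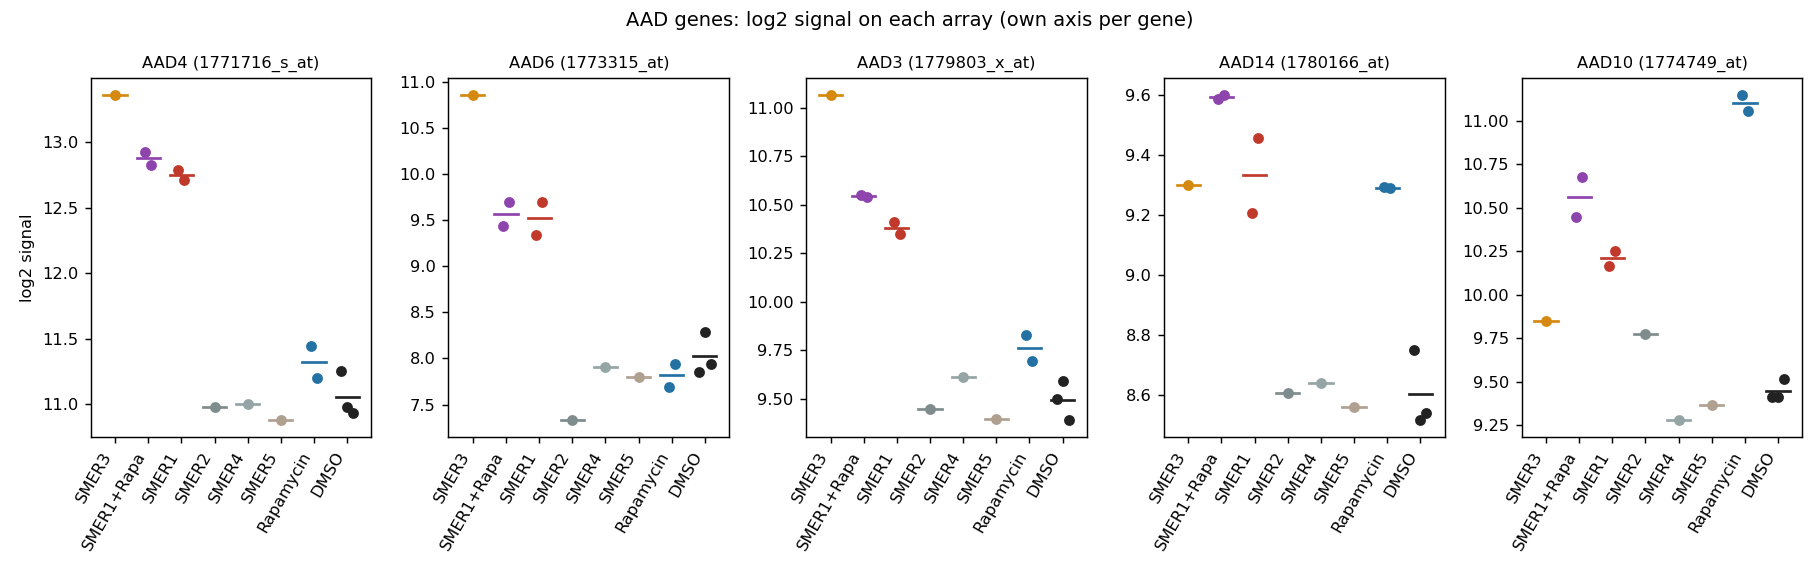
Log2 signal (y axis, a separate scale for each gene) of the AAD genes on each of the 13 arrays (points) by treatment, with a line at each group mean. AAD4, AAD6 and AAD3 are highest on the SMER3 array and near the DMSO level with rapamycin, AAD14 is at a similar level in SMER3, SMER1 and rapamycin, and AAD10 is highest with rapamycin.

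Similar gene copies can share probes, and the probe sets of AAD4 and AAD3 did not give the same size of response. In Affymetrix names the ending _s_at marks probes that match several similar transcripts and _x_at marks probes with partial matches elsewhere, so the signals used for AAD4 and AAD3 may include other transcripts. The other AAD4 probe set, 1774511_at, had a log2 signal of 11.85 on the SMER3 array, 11.15 and 11.06 with SMER1+Rapa, 10.91 and 10.78 with SMER1, 8.18 with SMER2, 8.28 with SMER4, 8.19 with SMER5, 9.14 and 8.65 with rapamycin, and 8.29, 8.26 and 8.39 with DMSO. Its treated and DMSO arrays did not overlap with SMER3, SMER1+Rapa, SMER1 or rapamycin. Its differences from DMSO were 3.54 ± 0.17 with SMER3, 2.79 ± 0.14 with SMER1+Rapa, 2.53 ± 0.14 with SMER1 and 0.58 ± 0.14 with rapamycin (adjusted p = 1.09e-05, 1.91e-06, 6.53e-06 and 0.00779, limma over all 5716 probe sets). On the fold scale AAD4 was thus 11.6-fold above DMSO with SMER3 by 1774511_at, against 4.93-fold by 1771716_s_at.

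For AAD3, the probe set 1777457_s_at was 0.55 ± 0.16 above DMSO with SMER3, 0.59 ± 0.12 with SMER1+Rapa and 0.36 ± 0.12 with SMER1 (adjusted p = 0.0293, 0.00348 and 0.0368), less than the x_at probe set gave. The dim probe set 1779484_at, whose name carries no mark of shared probes, had a log2 signal of 8.02 on the SMER3 array, 7.76 and 7.60 with SMER1+Rapa, 7.88 and 7.20 with SMER1, 6.77 with SMER2, 7.07 with SMER4, 6.11 with SMER5, 7.75 and 6.69 with rapamycin, and 7.46, 7.18 and 6.24 with DMSO. Its DMSO arrays spread over more than 1 log2 unit, and its rapamycin and SMER1 arrays overlapped them. It was not called with SMER3 (1.05 ± 0.55, adjusted p = 0.175), SMER1+Rapa (0.72 ± 0.43, adjusted p = 0.174) or SMER1 (0.58 ± 0.43, adjusted p = 0.282). The AAD3 calls came from probe sets marked as shared, and what other AAD transcripts contributed to it was not tested.

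**Figure D3:**
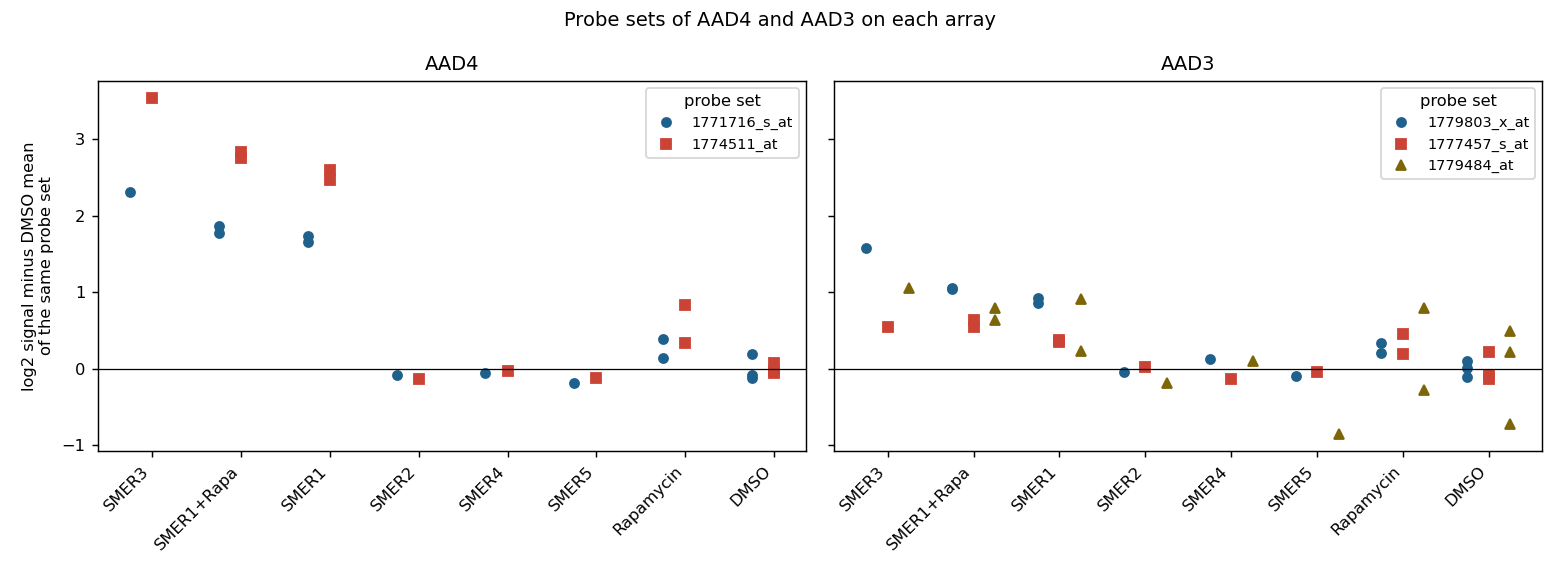
Log2 signal of each probe set of AAD4 (left) and AAD3 (right) on each array, as the difference from the DMSO mean of the same probe set (y axis), by treatment (x axis). For AAD4 the squares of 1774511_at lie above the circles of 1771716_s_at with SMER3, SMER1+Rapa and SMER1, and for AAD3 the triangles of the dim 1779484_at scatter by more than 1 log2 unit within DMSO.

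Adding SMER1 to rapamycin raised AAD4, AAD6 and AAD3 and lowered AAD10, compared with rapamycin alone (n = 2 each). AAD6 was higher by 1.75 ± 0.18 (adjusted p = 0.000393), AAD4 by 1.55 ± 0.13 (adjusted p = 0.000158) and AAD3 by 0.78 ± 0.09 (adjusted p = 0.000487). AAD3 was not called here by its 2 other probe sets (adjusted p = 0.151 and 0.462). AAD10 fell by 0.54 ± 0.09 (adjusted p = 0.00325), and AAD14 was at 0.30 ± 0.11 without a call (adjusted p = 0.0567). AAD14 was called there after quantile normalisation, at 0.52 (adjusted p = 0.00483), and without DMSO replicate 1, SMER1 replicate 1 or SMER1 replicate 2 (adjusted p = 0.0349, 0.0428 and 0.0428). Of all genes, 18.1% were called higher and 28.2% lower in this comparison. Adding rapamycin to SMER1, compared with SMER1 alone, raised AAD10 by 0.35 ± 0.09 (adjusted p = 0.0415), in a comparison that called 4.96% of all genes higher. This call was lost with an intensity trend in the variances (adjusted p = 0.0511) and in 7 of the 9 fits that left out 1 array. These were the fits without DMSO replicate 1 or 2, SMER1 replicate 1 or 2, SMER1+Rapa replicate 2, and rapamycin replicate 1 or 2 (adjusted p between 0.0578 and 0.24). The other 4 genes were not called, AAD6 at 0.05 (95% interval -0.39 to 0.48) and AAD4 at 0.13 (-0.17 to 0.42).

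AAD10 was the only one of the 5 called for a different response to SMER1 with and without rapamycin, in the fit of all arrays as deposited without a replicate block. Its interaction, the effect of SMER1 in the presence of rapamycin minus that in its absence, was -1.30 ± 0.13 (adjusted p = 0.000615). SMER1 thus went with -0.54 on top of rapamycin and 0.76 on top of DMSO. 21.3% of all genes had a negative interaction that was called, and the median interaction over all genes was -0.18. The interaction of AAD14 was -0.43 ± 0.15 (adjusted p = 0.0743), and it was called without DMSO replicate 1 (adjusted p = 0.0348) and without SMER1 replicate 1 (adjusted p = 0.0489). For AAD3, AAD4 and AAD6 it was -0.10 ± 0.12, -0.14 ± 0.17 and 0.25 ± 0.25, none called in that fit. With the replicate number as a block, AAD6 was called with a positive interaction. After quantile normalisation the interaction of AAD14 turned to 0.10 (adjusted p = 0.625), and AAD6 had 0.99 (adjusted p = 0.025).

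Against rapamycin, the second comparison the study names, SMER3 and SMER1 gave higher AAD6, AAD4 and AAD3 and lower AAD10. With SMER3, AAD6 was higher than with rapamycin by 3.04 ± 0.23 (8.22-fold), AAD4 by 2.04 ± 0.16 and AAD3 by 1.31 ± 0.11, and AAD10 was at -1.25 ± 0.11 (adjusted p = 7.00e-05, 7.64e-05, 9.85e-05 and 0.000152). With SMER1, AAD6 was higher than with rapamycin by 1.70 ± 0.18, AAD4 by 1.43 ± 0.13 and AAD3 by 0.62 ± 0.09, and AAD10 was at -0.89 ± 0.09 (adjusted p = 0.000489, 0.000223, 0.00159 and 0.000435). AAD3 was not called in SMER3 minus rapamycin by either other probe set (0.23 and 0.79, adjusted p = 0.294 and 0.289), nor in SMER1 minus rapamycin by the mean of its probe sets (adjusted p = 0.276) or by either other probe set (adjusted p = 0.869 and 0.645). Of all genes, 20.7% were called higher and 29.9% lower in the SMER3 comparison, and 17.1% and 19.7% in the SMER1 comparison. AAD4 and AAD6 were called higher than both DMSO and rapamycin with SMER3 and with SMER1. AAD10 and AAD14 were lower with SMER2, SMER4 and SMER5 than with rapamycin, AAD10 at -1.33, -1.82 and -1.73, and AAD14 at -0.68, -0.65 and -0.73, in comparisons that called 33.3%, 30.5% and 30.4% of all genes lower. The medians over all genes in these comparisons were -0.193 with SMER2, -0.147 with SMER4 and -0.155 with SMER5. AAD3 was called lower than with rapamycin on the SMER2 and SMER5 arrays too, at -0.32 and -0.37 (adjusted p = 0.0432 and 0.026). Neither AAD3 call held once the arrays were quantile-normalised (adjusted p = 0.333 and 0.0862), nor in the mean of the probe sets, in either other probe set or without rapamycin replicate 1 (adjusted p = 0.158 and 0.105). The SMER2 call was lost with the intensity trend and without DMSO replicate 1, either SMER1 array or either SMER1+Rapa array too (adjusted p between 0.0568 and 0.0708). AAD14 in SMER2 minus rapamycin was at -0.32 (adjusted p = 0.071) after quantile normalisation, no longer called.

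At the same dose and time, SMER3 gave higher AAD6, AAD3 and AAD4 than SMER1 and lower AAD10 (n = 1 against 2). SMER3 minus SMER1 was 1.34 ± 0.23 for AAD6 (adjusted p = 0.00269), 0.69 ± 0.11 for AAD3 (adjusted p = 0.00188) and 0.61 ± 0.16 for AAD4 (adjusted p = 0.0158). The AAD4 call was lost without SMER1 replicate 2 (adjusted p = 0.0581) and held in the other AAD4 probe set (1.00 ± 0.18, adjusted p = 0.00389). The AAD3 call was absent in its other probe sets (adjusted p = 0.391 and 0.537). AAD10 was at -0.36 ± 0.11 (adjusted p = 0.0373), which was lost when DMSO replicate 2, either SMER1 array or either rapamycin array was left out (adjusted p = 0.058, 0.0636, 0.125, 0.0503 and 0.0503). AAD14 was at -0.03 (95% interval -0.35 to 0.28). Of all genes, 20.6% were called higher and 26.1% lower with SMER3 than with SMER1. A moderated F test over the 5 SMERs called all 5 AAD genes, and 58.1% of all genes, with adjusted p between 5.70e-05 (AAD4) and 0.00329 (AAD14).

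No AAD gene was called against DMSO with SMER2, SMER4 or SMER5, each measured on 1 array, in the fit without a replicate block. The 15 differences from DMSO ran from -0.70 (AAD6 with SMER2) to 0.32 (AAD10 with SMER2), and with SMER4 and SMER5 from -0.22 (AAD6 with SMER5) to 0.12 (AAD3 with SMER4). For AAD4 the 95% intervals were -0.42 to 0.27 with SMER2, -0.40 to 0.29 with SMER4 and -0.53 to 0.16 with SMER5, below its differences with SMER3 and SMER1. By limma, 0.312% of all genes were called with SMER2, 0% with SMER4 and 0% with SMER5. At an unadjusted p under 0.05, 476, 78 and 211 of the 5449 genes passed, among them 2, 0 and 0 AAD genes. These counts depend on the fit. With the replicate number as a block, limma called 513 genes with SMER2 and 82 with SMER5. AAD6 was called lower with SMER2 there (-0.58, adjusted p = 0.0258). Over all alternatives, at most 1 gene was called with SMER4.

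YPL088W, another ORF annotated as a putative aryl-alcohol dehydrogenase, had its highest level with rapamycin, like AAD10. Its log2 signal was 11.51 on the SMER3 array, 11.31 and 11.07 with SMER1+Rapa, 10.89 and 10.86 with SMER1, 10.09 with SMER2, 9.88 with SMER4, 9.90 with SMER5, 12.83 and 12.74 with rapamycin, and 10.26, 9.92 and 9.85 with DMSO. The rapamycin arrays lay above all others, and the SMER3, SMER1+Rapa and SMER1 arrays above DMSO. It was higher with SMER3 by 1.497 ± 0.17, with SMER1+Rapa by 1.18 ± 0.13, with SMER1 by 0.86 ± 0.13 and with rapamycin by 2.77 ± 0.13 (adjusted p = 0.000437, 0.00012, 0.000884 and 4.89e-06). Its interaction was -2.46 ± 0.20 (adjusted p = 0.00034), and SMER1+Rapa minus rapamycin was -1.60 ± 0.15 (adjusted p = 0.000227). The further family names AAD15 and AAD16 had no probe set under these names. Whether a probe set under another name reads them was not tested.

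Across the 8 group means the AAD genes did not all follow 1 pattern. AAD3, AAD4 and AAD6 correlated with each other at r = 0.985, 0.977 and 0.968, AAD14 with these 3 at 0.724 to 0.843 and with AAD10 at 0.8, and AAD10 with AAD3, AAD4 and AAD6 at 0.366, 0.39 and 0.21. These are descriptions over 8 groups that share arrays, and AAD3 and AAD4 may share probes. Among 2258 other genes whose group means spanned at least 1 log2 unit, those most like AAD4 were OYE3, an NADPH oxidoreductase (r = 0.99), TOS8, a homeodomain transcription factor (0.99), and MNN4, which acts in mannan phosphorylation (0.99). OYE3 was 5.21 ± 0.10 above DMSO with SMER3 and 1.17 ± 0.08 with rapamycin. Those most like AAD6 were FMP48 (0.989), YLR460C (0.987) and MUP3, a methionine permease (0.983). FMP48 was 4.94 ± 0.12 above DMSO with SMER3 and at 0.05 ± 0.10 with rapamycin. Those most like AAD3 were AIF1, a homolog of apoptosis-inducing factor (0.995), YCT1, a cysteine transporter (0.993), and YCR102C (0.992). AAD14 was most like YKL107W (0.996), FMC1, an assembly factor of ATP synthase (0.996), and FRT2 (0.995). AAD10 was most like ERG28, of ergosterol synthesis (0.995), SRL3 (0.994) and YDL057W (0.985), and SRL3 was 3.29 ± 0.06 above DMSO with rapamycin and 1.03 ± 0.07 with SMER3.

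The members lie on 5 chromosomes, III (AAD3), IV (AAD4), VI (AAD6), X (AAD10) and XIV (AAD14), between the 2nd and the 11th gene from a chromosome end in the R64 gene order. Up to 5 measured genes on each side of a member were read, fewer where fewer were measured before the end. The share of all genes called higher was 21.6% with SMER3, 36.5% with SMER1 and 39.7% with rapamycin. Several of the neighbour counts below are near these shares. AAD4 and AAD6 stood apart from most of their neighbours with SMER3. Of the 10 neighbours of AAD4, 2 were called higher and 1 lower with SMER3, with a median of 0.06 and a highest value of 0.76 (MPH2, a maltose permease), where AAD4 had 2.30. Both neighbours called higher there, MPH2 and THI13, lost their calls after quantile normalisation, MPH2 at 0.13 (adjusted p = 0.576) and THI13 at 0.16 (adjusted p = 0.296). MPH2 lost it in the mean of its probe sets and without DMSO replicate 2 or 3 too (adjusted p = 0.139, 0.0612 and 0.0593). Of the 10 neighbours of AAD6, 3 were called higher and 1 lower with SMER3 (median 0.22), the highest being DAK2, a dihydroxyacetone kinase, at 2.07, and the adjacent AGP3, an amino acid permease, at 1.57. With SMER1, 7 neighbours of AAD4 were called higher and 2 lower (median 0.98) and 4 of AAD6 higher (median 0.66). With rapamycin, 6 neighbours of AAD4 were called higher and 1 lower, and 7 of AAD6 higher (medians 0.79 and 0.76), where AAD4 and AAD6 themselves were not called. GUD1, the guanine deaminase gene 4 places from AAD4, had 3.24 with rapamycin, where AAD4 had 0.27.

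Near AAD3, 2 neighbours had larger differences than AAD3 itself with both SMER3 and SMER1. YCR102C had 5.65 with SMER3 and 3.27 with SMER1, and PAU3, a seripauperin, had 4.09 and 1.95. The SMER1 call of PAU3 was lost without SMER1 replicate 1 and without DMSO replicate 3 (adjusted p = 0.15 and 0.0536). Of the 6 neighbours of AAD3, 4 were called higher with SMER3 and 5 with SMER1, beside 21.6% and 36.5% of all genes. The 5 neighbours of AAD10 included 2 called higher with rapamycin, as AAD10 was: DAL5, the allantoate permease, at 3.68 and YJR154W, the measured gene next to AAD10, at 1.95. That count is near the 39.7% of all genes called higher with rapamycin. None of the 5 neighbours of AAD10 was called with SMER1 or SMER3. The 5 neighbours of AAD14 had values between -0.27 and 0.29 with SMER1, with 1 called higher, below the 0.73 of AAD14.

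**Figure D4:**
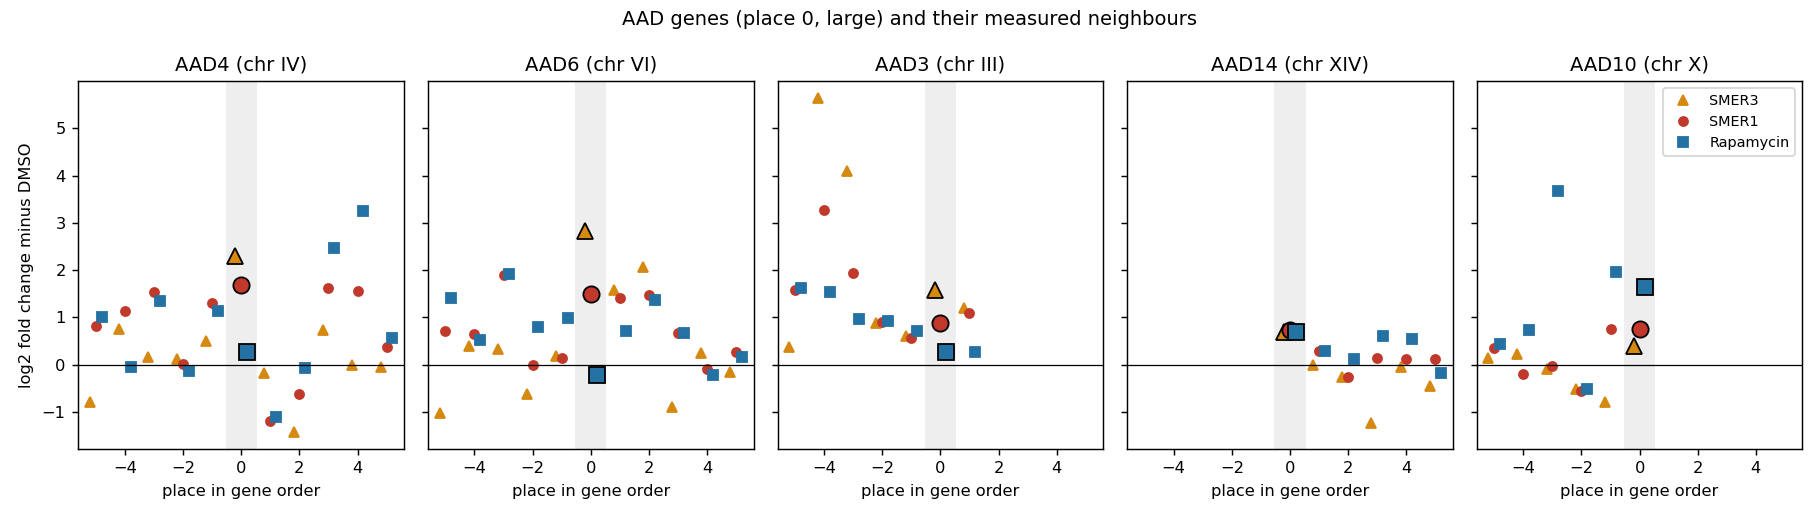
Log2 fold change against DMSO (y axis) of each AAD gene (large outlined symbols at place 0) and of up to 5 measured genes on each side in gene order (x axis) with SMER3, SMER1 and rapamycin. With SMER3 the triangles of AAD4 and AAD6 lie above those of all their neighbours, those of YCR102C and PAU3 lie above AAD3, and DAL5 and YJR154W lie above AAD10 with rapamycin.

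Yap1-responsive genes outside the family were mostly called higher with SMER3 and SMER1. Of 24 measured, 19 were called higher with SMER3, 22 with SMER1+Rapa, 22 with SMER1 and 16 with rapamycin, and 0 were called lower. Their medians were 1.44, 1.04, 1.01 and 0.57, beside 0.02, 0.09, 0.09 and 0.16 over all genes. The shares of all genes called higher in these comparisons were 21.6%, 39.6%, 36.5% and 39.7%. TSA2, a peroxiredoxin, was higher with SMER3 by 4.13 ± 0.11 and with SMER1 by 4.63 ± 0.09, and GTT2, a glutathione transferase, by 4.10 ± 0.25 and 3.81 ± 0.19. YCR102C, also a neighbour of AAD3, was higher by 5.65 ± 0.37 and 3.27 ± 0.30. FRM2, a nitroreductase, rose with SMER3 (2.94 ± 0.30, adjusted p = 0.000269) and was at 0.27 ± 0.24 with SMER1, while AHP1, a peroxiredoxin, was at 0.17 and 0.15 without a call. In SMER3 minus SMER1, 10 were called higher and 4 lower (median 0.12), beside 3 and 1 of the 5 AAD genes (median 0.61). That comparison called 20.6% of all genes higher and 26.1% lower. Without the dimmest 25% of genes, 6 and 4 of the Yap1-responsive genes were called.

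The 6 other aldo-keto reductases, GCY1, YJR096W, GRE3, YDL124W, ARA1 and YPR1, were all called higher with SMER1+Rapa, SMER1 and rapamycin, and 5 of them with SMER3 (medians 0.89 with SMER3, 1.58 with SMER1+Rapa, 1.46 with SMER1 and 1.08 with rapamycin). The share of all genes called higher was 39.6% with SMER1+Rapa, 36.5% with SMER1, 39.7% with rapamycin and 21.6% with SMER3. GCY1, a glycerol dehydrogenase, had 1.75 ± 0.09 with SMER3, 3.02 ± 0.07 with SMER1 and 2.09 ± 0.07 with rapamycin. YJR096W had 1.54 ± 0.09, 2.25 ± 0.07 and 1.55 ± 0.07 in the same order of treatments, GRE3, an aldose reductase, 1.18 ± 0.08, 1.55 ± 0.06 and 0.78 ± 0.06, and YDL124W 0.60 ± 0.08, 1.37 ± 0.07 and 1.09 ± 0.07. ARA1, an arabinose dehydrogenase, had 0.13 ± 0.08 without a call with SMER3, 1.15 ± 0.06 with SMER1 and 1.06 ± 0.06 with rapamycin, and YPR1 0.41 ± 0.07, 0.85 ± 0.06 and 0.47 ± 0.06. All 6 were called lower with SMER3 than with SMER1 (median -0.74), where AAD6, AAD3 and AAD4 were called higher. That comparison called 26.1% of all genes lower and 20.6% higher. After quantile normalisation GRE3 lost its call as lower, at -0.22 (adjusted p = 0.0635).

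Alcohol dehydrogenases and genes of the Ehrlich pathway, which turns amino acids into fusel alcohols, had smaller medians than the AAD genes with SMER3, SMER1+Rapa and SMER1. Of 17, 3 were called higher and 1 lower with SMER3 (median 0.14), 10 and 2 with SMER1+Rapa (0.30), 9 and 0 with SMER1 (0.23), and 9 and 2 with rapamycin (0.39). The share of all genes called higher was 21.6% with SMER3, 39.6% with SMER1+Rapa, 36.5% with SMER1 and 39.7% with rapamycin. Medians over all genes were 0.02, 0.09, 0.09 and 0.16 in the same order. After quantile normalisation the SMER1 counts of this list were 5 higher and 2 lower. The pyruvate decarboxylase genes PDC5 and PDC6 rose with SMER1 (3.96 ± 0.20 and 2.31 ± 0.17) and were at 0.50 ± 0.25 and -0.18 ± 0.22 with SMER3. ADH7, an NADPH-dependent alcohol dehydrogenase gene that neighbours AAD3, was called higher by 0.88 ± 0.24 with SMER3, 0.91 ± 0.19 with SMER1 and 0.93 ± 0.19 with rapamycin. All 3 calls of ADH7 were lost after quantile normalisation, at 0.18 (adjusted p = 0.579) with SMER3, 0.17 (adjusted p = 0.473) with SMER1 and 0.38 (adjusted p = 0.125) with rapamycin. The SMER3 call was lost with the intensity trend and without DMSO replicate 2 or 3 too (adjusted p = 0.0573, 0.0611 and 0.0546). BAT2, a branched-chain aminotransferase gene, was at 0.03 and ADH4 at -0.46 with SMER1, the lowest values of the list there.

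**Figure D5:**
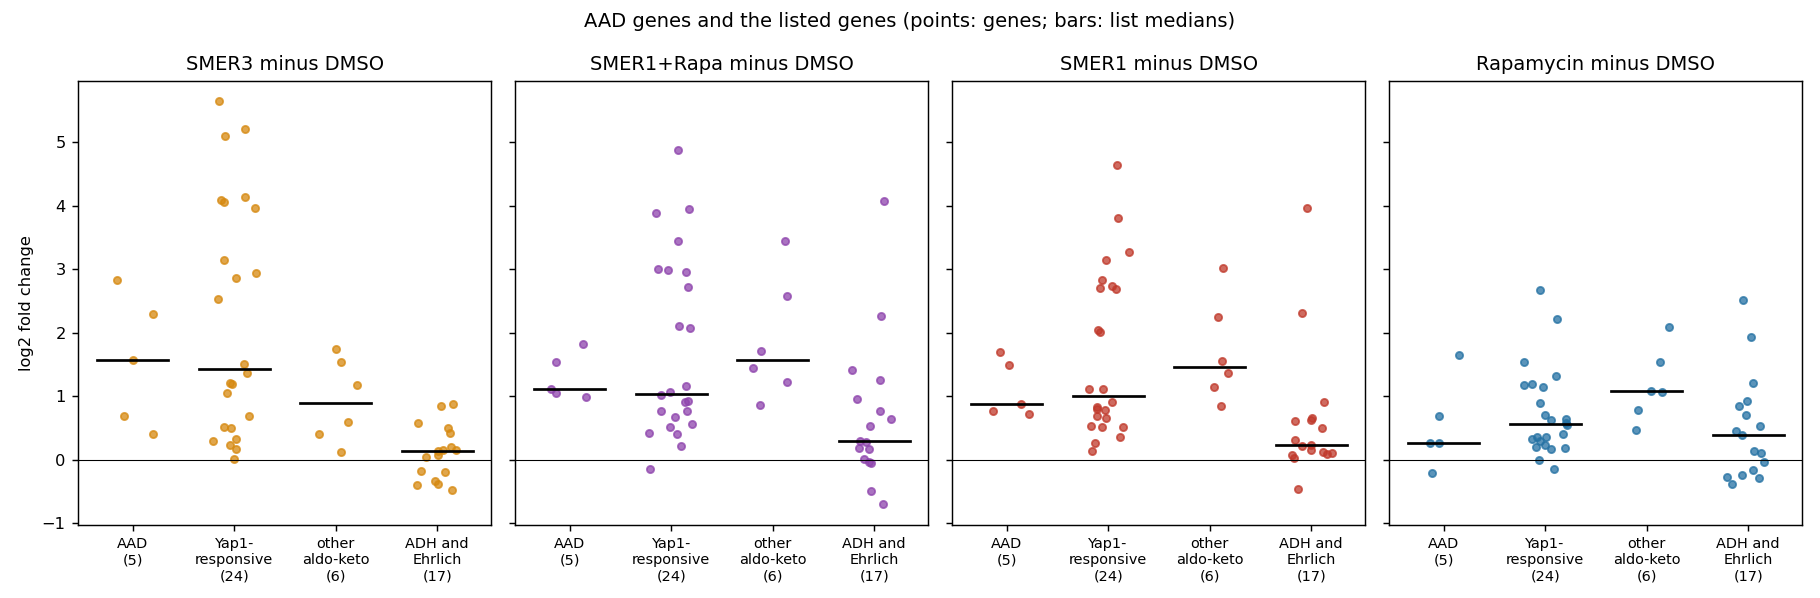
Log2 fold change against DMSO (y axis) of the 5 AAD genes, 24 Yap1-responsive genes, 6 other aldo-keto reductases, and 17 alcohol dehydrogenase and Ehrlich pathway genes (points), with bars at the list medians. The AAD median stands at 1.57 with SMER3 and 0.27 with rapamycin, and that of the other aldo-keto reductases at 0.89 and 1.08.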

How the data were processed

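Total RNA was extracted with a RiboPure-Yeast kit and biotin-labelled cRNA was hybridised to one-colour Affymetrix yeast arrays, per the labels' protocols. The deposited values were used as log2 signal intensities of 5716 probe sets, the log2 scale being judged from their range of 0 to 14.67. Probe summary, background correction and normalisation are not given in the sources used here. No scan dates were used, so batches were not tested. Of the probe sets, 5498 had 1 gene name, 0 several and 218 none, and 12 symbols were updated from the R64 gene table, used for names and gene order only. The highest-mean probe set was kept for the 47 genes with several, which left 5449 genes.

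A model with 1 mean for each of the 8 groups was fitted to all 13 arrays with limma 3.58.1 in R 4.3.3 (5 residual degrees of freedom and a prior worth 2.36), with two-sided tests, Benjamini-Hochberg adjustment over all 5449 genes and a threshold of 0.05, and was tested on simulated data. The members and lists were chosen with earlier results of these data known. Genes were named by rule: all 5 members, every gene of lists with up to 6, the 3 largest and 2 smallest differences with SMER1 in longer lists, the 3 genes most correlated with each member, and measured neighbours. Which neighbours to name, and the LEU2, OYE3, FMP48 and SRL3 values, were chosen after their values were seen. The alternatives were quantile normalisation, leaving out the dimmest 25% of genes, trended and robust variances, the mean of all probe sets, a replicate block and leaving out each replicated array; the other probe sets of AAD3 and AAD4 were added after seeing the data. The number of arrays limits the precision.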

Additional observations from a re-analysis of the deposited data

Results flagged for a closer look

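The interaction term showed that SMER1 affected AAD10 differently in rapamycin-treated and DMSO-treated cells, at -1.30 on the log2 scale (adjusted p = 0.000615 by limma). AAD10 was at -0.54 in SMER1+Rapa minus rapamycin and at 0.76 in SMER1 minus DMSO. The arrays did not overlap in either comparison, but the share of all genes without overlap is not given here. For comparison, 28.2% of all genes were called lower in SMER1+Rapa minus rapamycin and 36.5% higher in SMER1 minus DMSO. Over the alternatives that kept AAD10, the interaction ranged from -1.42 to -1.15.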

How the results depend on the processing

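Of 510 recomputed counts, 449 equalled the count reported or stayed within 1.5 times it. That check took no account of direction or of which genes were called. With quantile normalisation the median of all genes moved by over 0.1 on the log2 scale, to -0.05 with SMER1, 0.02 with rapamycin and -0.10 with SMER3 against DMSO. Against rapamycin the median moved to -0.017 with SMER2, -0.024 with SMER4 and -0.019 with SMER5, and that of the interaction to -0.00013. Quantile normalisation gave 11 genes called with SMER2. It gave 2 AAD genes called in SMER1+Rapa minus SMER1, 1 in SMER2 minus rapamycin and 2 for the interaction. It turned the sign of uncalled values of AAD6 in SMER2 and SMER5 minus rapamycin (0.34 and 0.56), of AAD14 in SMER3 minus SMER1 (0.066), and of the interactions of AAD3 and AAD14 (0.096 and 0.10). Leaving out the dimmest 25% of genes removed 4 of the 5 AAD genes and kept AAD4 alone, so the AAD count was 1 with SMER3, SMER1+Rapa and SMER1 against DMSO, 1 for SMER1+Rapa, SMER1, SMER3 and SMER5 against rapamycin, 1 for SMER3 minus SMER1 and for the F test, and 0 for rapamycin minus DMSO, SMER1+Rapa minus SMER1, SMER2 and SMER4 minus rapamycin and the interaction. That filter and the intensity trend each called 1 gene with SMER5, and the trend called 0 AAD genes in SMER1+Rapa minus SMER1. The AAD3 probe set 1777457_s_at gave 0.027 with SMER2 and -0.13 with SMER4, opposite in sign to the values reported.

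Deviations of same-numbered arrays from their group means correlated with r between 0.07 and 0.60, over 0.1 in 10 of 12 pairs. The numbers were not taken as pairing the arrays because not every pair exceeded 0.1. All pairs numbered 1 had r of 0.43 to 0.60, and the lower values were those of DMSO replicate 2. In groups of 2 arrays the deviations mirror each other, so some values repeat. The lone SMER arrays are all numbered 1. These values do not show that the arrays were unpaired, and the fit reported did not model a shared replicate effect. With the replicate number as a block, 513 genes were called with SMER2, 82 with SMER5, 1804 in SMER1+Rapa minus SMER1, 3057 in SMER1 minus rapamycin and 2377 for the interaction. The block called 5 AAD genes in rapamycin minus DMSO, 4 higher and 1 lower, the added ones being AAD4 (0.21, adjusted p = 0.0377) and AAD6, which was lower (-0.25, adjusted p = 0.0144). It called 1 in SMER2 minus DMSO, AAD6, which was lower (-0.58, adjusted p = 0.0258), 5 in SMER2 minus rapamycin (0 higher and 5 lower) and 4 in SMER4 minus rapamycin (1 higher and 3 lower). For comparison, over all alternatives up to 3857 of the 5449 genes were called in rapamycin minus DMSO. Up to 3601 were called in SMER2 minus rapamycin and 3570 in SMER4 minus rapamycin, so most genes can be called there. For the interaction the block called 2 (1 higher and 1 lower), with AAD6 at 0.30 (adjusted p = 0.0433). It gave sign-turned values of -0.024 (AAD14) and -0.097 (YPL088W) with SMER2 and 0.14 (AAD6) in SMER5 minus rapamycin.

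Leaving out 1 replicated array at a time gave ranges of genes called of 2 to 7 with SMER2, 0 to 1 with SMER4 and 0 to 1 with SMER5 against DMSO. They were 1643 to 2606 for SMER1+Rapa minus rapamycin, 445 to 929 for SMER1+Rapa minus SMER1, 1244 to 2065 for SMER1 minus rapamycin and 816 to 1426 for the interaction. AAD genes called numbered 0 to 1 for SMER1+Rapa minus SMER1, 2 to 4 for SMER3 minus SMER1 and 1 to 2 for the interaction. Values that changed sign in some of these fits were uncalled as reported. For SMER2 minus DMSO these were -0.10 to 0.0025 (AAD3), -0.14 to 0.020 (AAD4), -0.040 to 0.078 (AAD14), -0.0080 to 0.20 (YPL088W). For SMER4 minus DMSO these were -0.12 to 0.042 (AAD4), -0.21 to 0.0070 (AAD6), -0.0080 to 0.11 (AAD14). For SMER5 minus DMSO these were -0.088 to 0.030 (AAD14), -0.20 to 0.011 (YPL088W). For SMER1+Rapa minus SMER1 these were -0.13 to 0.22 (AAD6). For SMER1 minus Rapamycin these were -0.085 to 0.17 (AAD14). For SMER4 minus Rapamycin these were -0.035 to 0.21 (AAD6). For SMER5 minus Rapamycin these were -0.14 to 0.11 (AAD6). For SMER3 minus SMER1 these were -0.16 to 0.092 (AAD14). The causes of these changes were not tested beyond the smaller number of genes or arrays. With 1 array for SMER2, SMER3, SMER4 and SMER5 and unknown probe-level processing, precision rests on the spread of the other groups. The search of promoter letters was not run.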
